A study of Mus musculus with 3 samples.

Results

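Immediate early genes and the stress response genes that accompany them were followed across the immune, vascular and other cells of mouse brains with and without experimental breast cancer metastases. The list was defined by gene name and holds 33 genes, all measured in both deposited tables, out of 19274 genes in either table. Its genes were chosen with earlier results of these data known. By role they are 13 transcription factors (Fos, Fosb, Jun, Junb, Jund, Egr1, Egr2, Atf3, Klf2, Klf4, Klf6, Nr4a1 and Myc), 14 feedback inhibitors and growth arrest genes (Ier2, Ier3, Ier5, Dusp1, Dusp2, Zfp36, Zfp36l1, Btg1, Btg2, Nfkbia, Nfkbiz, Gadd45b, Gadd45g and Ppp1r15a), 4 heat shock chaperones (Hspa1a, Hspa1b, Dnajb1 and Hsp90aa1) and 2 genes of lymphocyte activation (Rgs1 and Cd69). The study profiled single cells of 8 brains by CITE-seq, which reads messenger RNA and antibody-bound surface proteins of the same droplet. Each sample was 1 brain hemisphere of a female C57Bl/6 mouse aged 2 to 3 months. The fractalkine receptor gene Cx3cr1 was disrupted on 1 allele (heterozygous, Cx3cr1+/-) or on both (homozygous, Cx3cr1-/-), so that every mouse carried at least 1 disrupted allele and wild-type mice are not part of the comparison. Mice were naive or had received E0771 cells, a mouse mammary carcinoma line, by carotid artery injection about 2 weeks earlier, with 2 brains for each genotype and state. Perfused brains were dissociated with enzymes, cleared on a Percoll gradient, labelled separately with 35 antibodies and a hashtag, and pooled into 1 library. The hashtag of a cell names its brain, and brains are the replicates throughout.

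Immediate early genes need no new protein for their induction: transcription factors that are already in the cell, such as serum response factor, CREB and NF-kB, switch them on within minutes of a growth factor, cytokine or stress signal. Their products include the AP-1 subunits of the Fos and Jun families, and a second wave of phosphatases, messenger RNA decay factors and NF-kB inhibitors that shut the same pathways down again. In the brain they are textbook markers of activity and of injury, and in isolated microglia, the resident macrophages of the brain, they are also known to be induced by enzymatic tissue dissociation, which all samples here went through.

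Levels are given as CPM (counts per 1e+06), the depth-corrected unique molecular identifiers (UMIs, 1 per captured RNA molecule) of a gene scaled to the total of all genes, summed over the cells of 1 class in 1 brain. Depth correction changes the counts, so corrected UMIs no longer count captured molecules. Of 13455 deposited cells, 1138 barcodes occurred in both tables and were dropped from each, which left 8443 cells with metastases and 2736 naive cells. Median raw UMIs per cell lay between 6181 and 7096 in the naive brains and between 7823.5 and 71585 in the metastasis-bearing ones, where the homozygous brain 1 stood apart through its many cells with high levels of the epithelial keratin gene Krt8. The Krt8-high cells were called by that gene; 136 of them carried the hashtags of naive brains, against the label of those samples. In microglia-like cells Cx3cr1 followed the genotype labels, with 1363 and 1464 CPM in heterozygous and 114 and 31.6 CPM in the homozygous metastasis-bearing brains, and 1953 and 1852 against 75.6 and 71.4 CPM in the naive ones. Classes were named by their marker genes, and 6 classes of metastasis-bearing brains and 2 of naive brains held at least 20 cells in each of 4 brains. These were 654 microglia-like, 1786 monocyte/macrophage-like, 1201 T-like, 747 NK-like, 454 vascular-like and 2732 Krt8-high cells with metastases, and 1234 microglia-like and 248 T/NK-like cells without. Because clusters were made from the same expression data, differences between classes are given as descriptions with no test.

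Microglia-like cells held the largest share of the 33 genes among the tested classes of every brain. In naive brains the members together made up 8.02%, 7.27%, 8.05% and 8.14% of all corrected UMIs of microglia-like cells (heterozygous brains 1 and 2, homozygous brains 1 and 2; 7.87% ± 0.405, SD, n = 4). With metastases the share in microglia-like cells was 5.94%, 5.77%, 4.52% and 5.39% (5.40% ± 0.636), which lay below every naive brain. Monocyte/macrophage-like cells reached 2.11% ± 0.253, vascular-like cells 1.96% ± 0.514, NK-like cells 1.79% ± 0.174 and T-like cells 1.46% ± 0.111 (n = 4 brains each), while T/NK-like cells of naive brains held 2.09% ± 0.0347. Krt8-high cells were lowest, at 0.423% ± 0.0167 with metastases. Of the classes too small or too mixed to test, neutrophil-like cells held 3.41% ± 0.253 (n = 3 brains), naive vascular-like cells 2.52% ± 0.309 (n = 3) and an unnamed class of low UMI counts in naive brains 7.04% ± 0.731 (n = 4). The transcription factors alone gave between 2.59% and 5.37% of the UMIs of microglia-like cells in the 8 brains, and the 4 heat shock chaperones no more than 0.0903%.

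**Figure D1:**
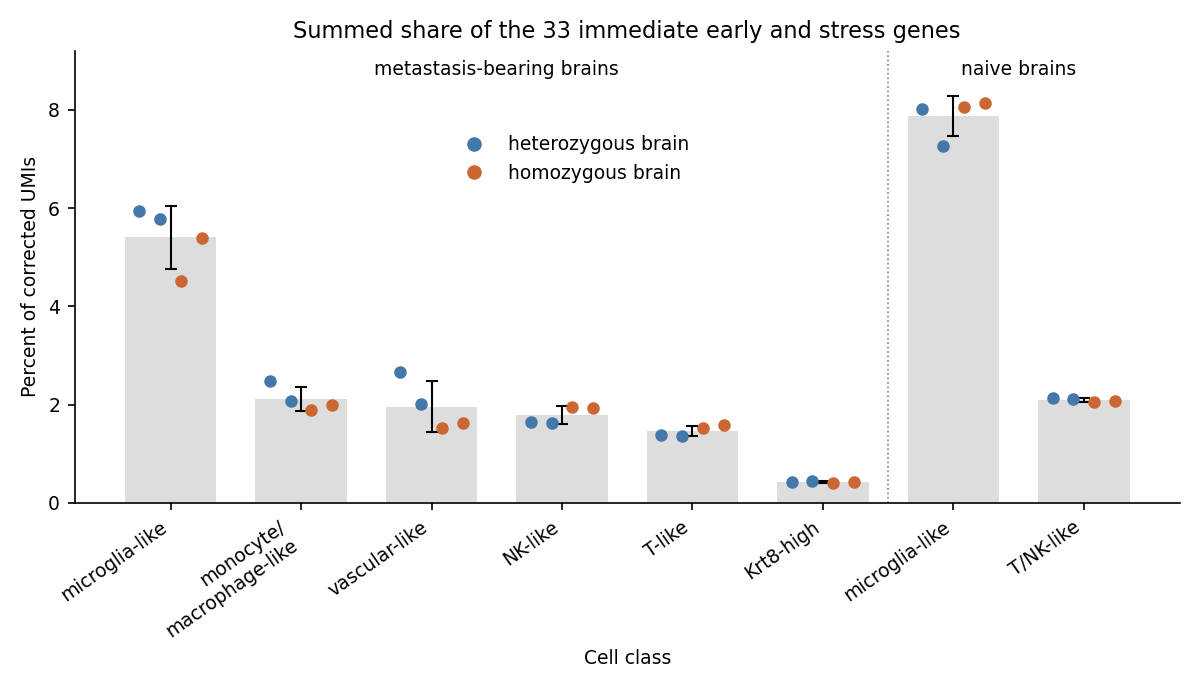
Summed share of the 33 genes in all corrected UMIs (percent, vertical axis) by cell class, 1 point per brain, for metastasis-bearing and naive brains. Microglia-like cells lie between 4.52% and 8.14% in the 8 brains, and Krt8-high cells of metastasis-bearing brains near 0.423%.

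Shares were also read within ranges of depth. Within microglia-like cells with metastases the share was 5.96% ± 0.271 for cells with 5000 to 15000 raw UMIs (n = 4 brains) and 4.02% ± 0.660 for deeper cells (n = 3 brains). In naive brains it was 8.86% ± 0.510 below 5000 raw UMIs and 7.81% ± 0.409 between 5000 and 15000. Median raw UMIs were 8470 in microglia-like cells and 9011 in vascular-like cells of the same brains, whose shares differed 5.40% to 1.96%, whereas Krt8-high cells had a median of 103002.

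Gene by gene, 19 of the 32 members with a mean above 10 CPM were highest in microglia-like cells in all 4 metastasis-bearing brains, where 8.36% of all such genes were. In naive brains 25 of 32 were higher in microglia-like than in T/NK-like cells in every brain (35.5% of all genes), and 4 were higher in T/NK-like cells (27.4% of all genes): Dusp2, Btg1, Rgs1 and Cd69. Fewer members were highest in another class in all 4 metastasis-bearing brains. Hsp90aa1 and Myc were highest in Krt8-high cells in all 4 brains (25.9% of all genes), Nr4a1 in monocyte/macrophage-like cells (7%), Cd69 in T-like cells (2.92%), Gadd45g in vascular-like cells (13.9%) and none in NK-like cells (2.46%). Ier3, Klf4, Hspa1b, Dusp2, Btg1 and Rgs1 also had their highest mean in another class, but not in all 4 brains.

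Among the AP-1 subunits, Jun, which pairs with Fos to bind DNA, stood at 6573 ± 1376 CPM in microglia-like cells with metastases (mean ± SD, n = 4), with 7572, 7517, 4626 and 6576 CPM in heterozygous brains 1 and 2 and homozygous brains 1 and 2, the order kept below. Vascular-like cells came next at 1807 ± 474 CPM and Krt8-high cells last at 237 ± 14.2 CPM. The ranges of the first and next class did not overlap. Fos, its partner, measured 6169, 6062, 4332 and 5629 CPM in microglia-like, 4179, 2749, 1905 and 2027 CPM in vascular-like and 44.8, 16.4, 16.0 and 24.1 CPM in Krt8-high cells. Every brain held more Fos in microglia-like than in vascular-like cells, and Krt8-high cells had little of it in any brain. Junb, which can restrain Jun, reached 5140.1 ± 757 CPM in microglia-like and 2594 ± 194 CPM in T-like cells, the class after it. Jund, the most constitutive of the family, reached 4296 ± 836 CPM in microglia-like and 2104 ± 227 CPM in NK-like cells. Fosb, a relative of Fos, reached 1373 ± 253 CPM in microglia-like and 400.3 ± 111 CPM in vascular-like cells, and none of these 3 pairs of ranges overlapped. Atf3, a stress-induced partner of Jun, was at 2472 ± 358 CPM there and at 517 ± 54.2 CPM in monocyte/macrophage-like cells, again without overlap.

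The other transcription factors divided between classes. Egr1, a classical serum-response gene, stood at 3519, 3356, 2919 and 2889 CPM in microglia-like cells and at 1313, 862, 484 and 651 CPM in vascular-like cells, and the lowest microglia value lay above the highest vascular one. Egr2, its relative, reached 59.0 ± 16.1 CPM in microglia-like and 28.9 ± 9.07 CPM in monocyte/macrophage-like cells. Klf2, which holds endothelial and immune cells in a quiet state, reached 2182 ± 828 CPM in microglia-like, 1604 ± 274 CPM in vascular-like and 1396 ± 373 CPM in NK-like cells, and the first and next class overlapped. Klf4, known from endothelium and macrophage differentiation, measured 645, 323, 354 and 520.2 CPM in vascular-like and 513, 445, 342 and 490.4 CPM in microglia-like cells, and these ranges overlapped. Klf6, a broadly induced relative, stood at 1237 ± 329 CPM in microglia-like cells and 618 ± 87.1 CPM in monocyte/macrophage-like cells. Nr4a1, an orphan nuclear receptor needed by patrolling monocytes, was the transcription factor with its highest level in monocyte/macrophage-like cells, at 644, 410.2, 397 and 545 CPM, against 154, 216, 185 and 153 CPM in microglia-like cells. Myc, a driver of growth and division, was highest in Krt8-high cells at 210.2, 189, 238 and 223 CPM and lay at 35.0, 29.3, 17.8 and 38.8 CPM in microglia-like cells, with no overlap. Krt8-high cells that carried naive hashtags had a like Myc level, 217.7 ± 15.1 CPM (n = 3 brains), but held 190.4 ± 98.9 CPM of Fos, above every metastasis-bearing brain.

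**Figure D2:**
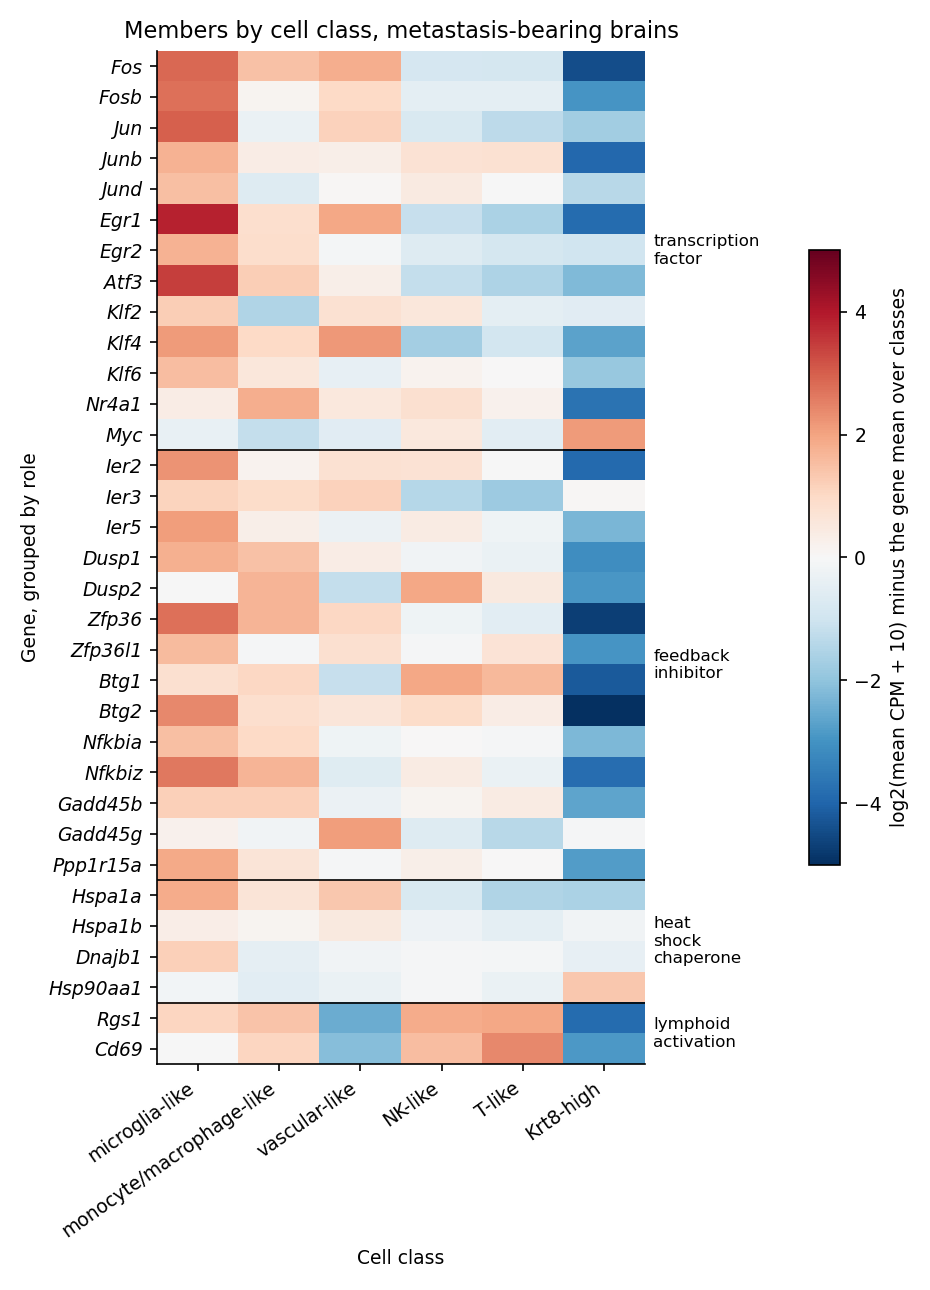
Relative level of each of the 33 genes by class, from mean CPM over brains with at least 20 cells, genes ordered by role. Colour gives the log2 level, after a small constant was added, minus the mean of that gene over the classes. Colours therefore compare classes within a gene, not levels between genes. Microglia-like cells carry the highest Fos, Jun and Egr1, Krt8-high cells the highest Hsp90aa1 and Myc, and T-like cells the highest Cd69.

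Of the 14 feedback inhibitors, several were also highest in microglia-like cells. Zfp36, which binds AU-rich messenger RNAs such as that of tumour necrosis factor and speeds their decay, measured 3209.5, 3287, 2539.9 and 2605 CPM in microglia-like cells, 1552, 1485, 1234 and 1326 CPM in monocyte/macrophage-like cells and 6.78 ± 1.75 CPM in Krt8-high cells. All 4 microglia values exceeded all monocyte/macrophage values. Nfkbia, the inhibitor that keeps NF-kB in the cytoplasm, was at 3568 ± 625 CPM in microglia-like and 2457 ± 382 CPM in monocyte/macrophage-like cells, and these ranges overlapped. Nfkbiz, a nuclear relative of it, reached 1241 ± 89.8 CPM in microglia-like cells. Dusp1, a phosphatase that inactivates MAP kinases, stood at 1949.6 ± 289.9 CPM in microglia-like and 1555 ± 137 CPM in monocyte/macrophage-like cells, with overlapping ranges. Its relative Dusp2 was highest on average in NK-like cells, at 594 ± 118 CPM, and stood at 144 ± 11.5 CPM in microglia-like cells. Btg2, an antiproliferative gene, reached 2507 ± 263 CPM in microglia-like and 882 ± 86.7 CPM in NK-like cells, whereas its relative Btg1 had its highest mean in NK-like cells, at 2431 ± 456 CPM.

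Of the remaining inhibitors, Ier2 and Ier5, short immediate early genes, reached 1982 ± 155 and 1655 ± 343 CPM in microglia-like cells with metastases. Ier3, a survival gene, measured 879 ± 311 CPM in vascular-like and 865 ± 185 CPM in microglia-like cells, with overlapping ranges. Zfp36l1, a second messenger RNA decay factor, stood at 950.4 ± 78.6 CPM in microglia-like cells. Gadd45g, a stress-induced growth arrest gene, was highest in vascular-like cells at 456, 419, 152 and 138 CPM and lay at 120.1, 56.9, 31.0 and 77.7 CPM in microglia-like cells. Its relative Gadd45b reached 416 ± 108 CPM in microglia-like cells, and Ppp1r15a, which restores translation after stress, 786 ± 78.5 CPM.

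The heat shock chaperones divided between classes. Hsp90aa1, the inducible form of Hsp90, measured 1059, 1659, 1061 and 1172 CPM in Krt8-high cells and 473, 429, 346 and 469 CPM in microglia-like cells with metastases, and no brain of the first overlapped the second. Dnajb1, a co-chaperone of Hsp70, was highest in microglia-like cells at 156 ± 18.0 CPM, followed by NK-like cells at 59.8 ± 15.0 CPM. Hspa1a, an inducible Hsp70 gene, reached 152, 103, 76.0 and 82.5 CPM in microglia-like and 85.4, 107, 47.0 and 35.6 CPM in vascular-like cells, which overlapped. Hspa1b passed the filter of 10 CPM in vascular-like cells alone of the tested classes, at 11.5 ± 2.92 CPM, and stood at 9.29 ± 4.46 CPM in microglia-like cells. Hspa1a and Hspa1b are near-identical copies, so the split of their counts is uncertain.

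Both lymphoid members had their highest means in T-like cells. Cd69, an early activation antigen that holds lymphocytes in tissue, stood at 273, 317, 535 and 466 CPM in T-like, 96.7, 129.7, 351 and 275 CPM in NK-like and 20.7, 27.6, 179 and 41.3 CPM in microglia-like cells with metastases. All 4 brains had more Cd69 in T-like than in NK-like cells. Naive T/NK-like cells held 297, 406, 377 and 239 CPM, and naive microglia-like cells 2.97, 12.7, 2.67 and 7.85 CPM. Rgs1, which dampens chemokine receptor signalling, was at 773 ± 157 CPM in T-like and 733 ± 174 CPM in NK-like cells, which overlapped, and at 417 ± 134 CPM in microglia-like cells.

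The share of cells with at least 1 UMI was read after every cell was thinned to 2000 corrected UMIs. Correction had already changed depth. The 231 Krt8-high cells of metastasis-bearing heterozygous brain 1 had 2.90e+06 corrected UMIs in total, at a median of 107612 raw UMIs. Thinning therefore evened corrected totals, not the captured depth of the cells. Fos was found in 95.5% of microglia-like cells with metastases and 99.1% without (mean of 4 brains), against 3.87% of Krt8-high cells. That last share was 8.94% in corrected counts before thinning. Egr1 was found in 93.0% and 98.1% of microglia-like cells and in 0.852% of Krt8-high cells. Both genes were thus found in nearly all microglia-like cells at this corrected depth. Hspa1a was found in 12.7% and 17.4% of microglia-like cells. Cd69 reached 36.1% of T-like and 20.8% of NK-like cells, compared with 0.569% of naive microglia-like cells, a class that should lack it (median raw UMIs 5409, 4136 and 7197). Conversely, Hsp90aa1 was found in 89.4% of Krt8-high and 54.3% of microglia-like cells.

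Members also varied together among cells. Over single microglia-like cells within a brain, Jun and Jund had the highest correlation of log2 levels, with a mean r of 0.78 over the 4 metastasis-bearing brains and 0.65 over the 4 naive brains. Junb and Zfp36 followed at 0.71 and 0.57. Rgs1 stood apart, with a mean r of -0.24 against Nfkbia in metastasis-bearing brains and -0.17 in naive ones. Across the 24 combinations of class and metastasis-bearing brain, levels went with those of Fos most closely for Zfp36 (r = 0.98), Egr1 (0.96), Dusp1 (0.96) and Fosb (0.95), and least for Myc (-0.78) and Hsp90aa1 (-0.80). These correlations are descriptions, since cells of a brain share a library and a dissociation, and the 24 points share 4 brains.

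The start sites of 26 members were matched to RefSeq promoter windows of the mouse assembly GRCm38.p6, each reaching from 250 bases before to 50 after the start. Egr1, Ier2, Hsp90aa1, Nfkbiz, Rgs1, Cd69 and Myc had no window and were not searched. The core TGACG of the cyclic AMP response element, the site of CREB, was found on either strand in 14 of 26 members (53.8%), against 23.0% of 27025 genes with such a window. The full palindrome TGACGTCA, which contains that core, was found in 3 members, Dusp1, Btg2 and Ppp1r15a (11.5% against 2.03% of genes). A kappa B site, where NF-kB binds, was found in 8 members (30.8% against 9.55%), and a serum response element in Egr2 and Zfp36 (7.69% against 1.81%). A MEF2 site was found in Jun, Atf3 and Klf2 (11.5% against 3.70%). The AP-1 site TGANTCA was found in Zfp36l1 (3.85% against 8.97%), and the heat shock motif GAANNTTC in Jun, Hspa1a and Hspa1b (11.5% against 9.04%). A match gives letters in a window, not binding, and sites outside the windows were not searched.

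The 250 bases before the start are shown for 5 members, 5′ to 3′ on the strand of the gene: Fos and Zfp36 as a transcription factor and a feedback inhibitor whose levels went together across classes, Klf2 and Nr4a1 because their levels differed by genotype, and Nfkbia as the NF-kB inhibitor. Capitals mark the TGACG core or its reverse complement in Fos and Nr4a1, the serum response element in Zfp36, the MEF2 site in Klf2 and the kappa B site in Nfkbia. They lie at chr12:85473640-85473889 (plus strand, Fos), chr7:28379229-28379478 (minus strand, Zfp36), chr15:101266596-101266845 (plus strand, Nr4a1), chr8:72318812-72319061 (plus strand, Klf2) and chr12:55492648-55492897 (minus strand, Nfkbia).
Fos: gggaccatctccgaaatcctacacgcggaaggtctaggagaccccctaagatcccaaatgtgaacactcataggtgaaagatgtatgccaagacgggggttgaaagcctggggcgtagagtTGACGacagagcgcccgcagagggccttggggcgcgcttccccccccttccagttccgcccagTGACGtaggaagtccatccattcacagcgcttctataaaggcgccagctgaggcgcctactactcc
Zfp36: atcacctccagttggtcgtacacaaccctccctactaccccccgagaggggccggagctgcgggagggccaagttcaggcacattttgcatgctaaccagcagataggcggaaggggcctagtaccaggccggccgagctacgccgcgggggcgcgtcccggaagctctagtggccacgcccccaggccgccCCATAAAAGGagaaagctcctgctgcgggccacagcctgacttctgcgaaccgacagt
Nr4a1: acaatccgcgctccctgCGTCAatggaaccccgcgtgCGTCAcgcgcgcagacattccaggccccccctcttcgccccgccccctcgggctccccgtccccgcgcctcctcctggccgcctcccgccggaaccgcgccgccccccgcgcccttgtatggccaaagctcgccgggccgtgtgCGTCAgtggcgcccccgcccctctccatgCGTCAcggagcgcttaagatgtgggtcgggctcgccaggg
Klf2: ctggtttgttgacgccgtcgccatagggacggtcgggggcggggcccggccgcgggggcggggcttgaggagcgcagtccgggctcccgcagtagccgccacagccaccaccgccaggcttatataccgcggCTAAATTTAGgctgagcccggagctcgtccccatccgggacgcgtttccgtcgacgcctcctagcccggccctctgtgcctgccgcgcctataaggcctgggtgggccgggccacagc
Nfkbia: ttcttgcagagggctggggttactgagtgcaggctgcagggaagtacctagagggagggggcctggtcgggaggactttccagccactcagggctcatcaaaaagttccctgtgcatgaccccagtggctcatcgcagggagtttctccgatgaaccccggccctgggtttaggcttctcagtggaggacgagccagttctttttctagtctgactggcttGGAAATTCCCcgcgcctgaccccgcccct
The Fos window holds 2 cores and the Nr4a1 window 4, while the Zfp36, Klf2 and Nfkbia windows hold 1 marked site each.

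Microglia-like cells of naive brains carried more of most members than those of metastasis-bearing brains. Of the 31 members above 10 CPM in both tables, 18 were higher in every naive than in every metastasis-bearing brain (18.1% of all genes), 2 were lower (8.99%) and the others overlapped. The median log2 difference of naive minus metastasis-bearing brains was 0.47 over the members and 0.11 over all 7065 genes, and 24 of 31 members were positive where 65.9% of all genes were. The tables were corrected for depth separately, so no test was made between states.

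Jun stood at 12698, 10537, 11638 and 11808 CPM in microglia-like cells of the naive brains, against the 6573 ± 1376 CPM given above for metastasis-bearing ones (log2 difference 0.83). Fos stood at 9210.3, 8208, 8772 and 8818 CPM in the naive brains, 0.66 higher on the log2 scale. Neither gene overlapped between states. Klf2 measured 4313, 3596, 5889 and 5806 CPM without and 1366, 2061, 1967 and 3335 CPM with metastases, the largest positive log2 difference of the members at 1.16, and its lowest naive value was above its highest metastasis-bearing one. Btg2 (4558 ± 279 CPM without metastases, 0.86), Klf6 (2132 ± 409.8 CPM, 0.78), Dnajb1 (269 ± 16.0 CPM, 0.75) and Gadd45g (156 ± 14.6 CPM, 1.03) were higher in all naive brains as well. The opposite held for the phosphatase gene Dusp2, at 39.9, 61.1, 86.3 and 64.2 CPM without and 133, 153, 136 and 155 CPM with metastases, and for Gadd45b, at 204, 266, 241 and 257 against 557, 445, 328 and 333 CPM. Egr2, Ier3, Nr4a1, Btg1, Hspa1a, Hsp90aa1, Nfkbia, Nfkbiz, Ppp1r15a, Rgs1 and Myc overlapped between states. The NF-kB inhibitor genes Nfkbia and Nfkbiz had log2 differences of -0.11 and 0.04.

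**Figure D3:**
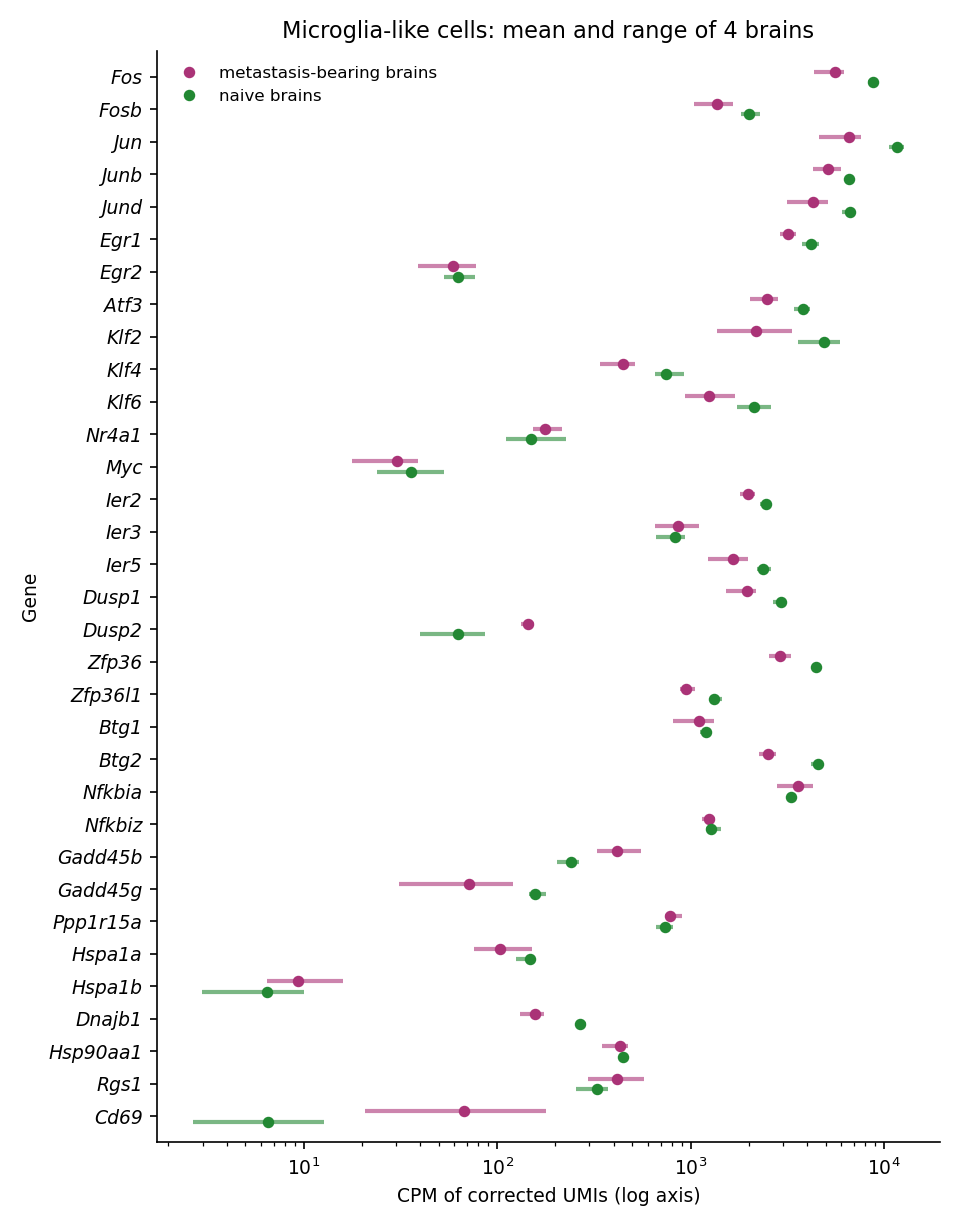
Level of each member in microglia-like cells of naive and metastasis-bearing brains (CPM, log scale). Points are means of 4 brains, and lines reach from the lowest to the highest brain. Jun, Fos, Klf2 and Btg2 are higher in all 4 naive brains, and Dusp2 and Gadd45b are lower.

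The effect of the second disrupted Cx3cr1 allele was tested within each class and state with limma on log2(CPM + 10), homozygous minus heterozygous, with p-values adjusted over all genes by Benjamini-Hochberg. In naive microglia-like cells 3 of the 31 members tested rose in homozygous brains and 0 fell, where 44 of 7693 genes (0.572%) were called and 0.403% rose. These 3 were Klf2, Klf6 and Nr4a1, all transcription factors. The list was chosen with earlier results of these data known, so its share of calls is a description. Of the members, 9 were higher in both homozygous than in both heterozygous brains (23.4% of all genes) and 1 was lower (13.7%). The difference was positive for 26 of 31 members and negative for 5, where 41.8% of all genes were negative. The median difference was small, 0.09 against 0.03 over all genes.

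Klf2 measured 4313 and 3596 CPM in heterozygous and 5889 and 5806 CPM in homozygous brains. Both homozygous brains lay above both heterozygous ones, and the log2 difference was 0.57 (SE 0.08, adjusted p = 9.68e-05). Klf6 stood at 1827 and 1746 CPM in heterozygous and 2587 and 2366 CPM in homozygous brains, again without overlap, with a log2 difference of 0.47 (SE 0.07, adjusted p = 0.000537). Nr4a1 stood at 111 and 113 CPM in heterozygous and 147 and 227 CPM in homozygous brains, with a log2 difference of 0.66 (SE 0.13, adjusted p = 0.00546). Its heterozygous brains lay close together and its homozygous brains apart. The next smallest p-values belonged to Dusp2, at 39.9 and 61.1 CPM in heterozygous and 86.3 and 64.2 CPM in homozygous brains (log2 difference 0.50, SE 0.15, adjusted p = 0.170), and Ppp1r15a, at 662 and 678 CPM in heterozygous and 792 and 806 CPM in homozygous brains (log2 difference 0.25, SE 0.07, adjusted p = 0.175), neither of which passed. Fos and Jun differed by 0.02 and 0.02 on the log2 scale and did not pass.

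Each of these calls rested on few brains. Without the homozygous brain 2 Klf2 and Nr4a1 missed the threshold, and the Nr4a1 difference became 0.36. Without the homozygous brain 1 Klf6 missed it. Without the heterozygous brain 2 the fit called 5 members among 52 genes, and Dusp2 was among them with a rise of 0.76 (adjusted p = 0.00359). A fit whose variance did not follow the mean level called none of the members, with adjusted p of 0.516 for Klf2. In cells of the deposited antibody gate for microglia, Klf2 and Klf6 rose and Nr4a1 had a difference of 0.48 (adjusted p = 0.397). The 4 measured of 5 red blood cell markers summed to 0.809, 679, 0.89 and 5.35 CPM, far higher in the heterozygous brain 2. The 10 microglia markers summed to 21595, 20219, 18989.7 and 19284 CPM, lower in both homozygous brains. The part of both marker lists in these differences was not tested.

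**Figure D4:**
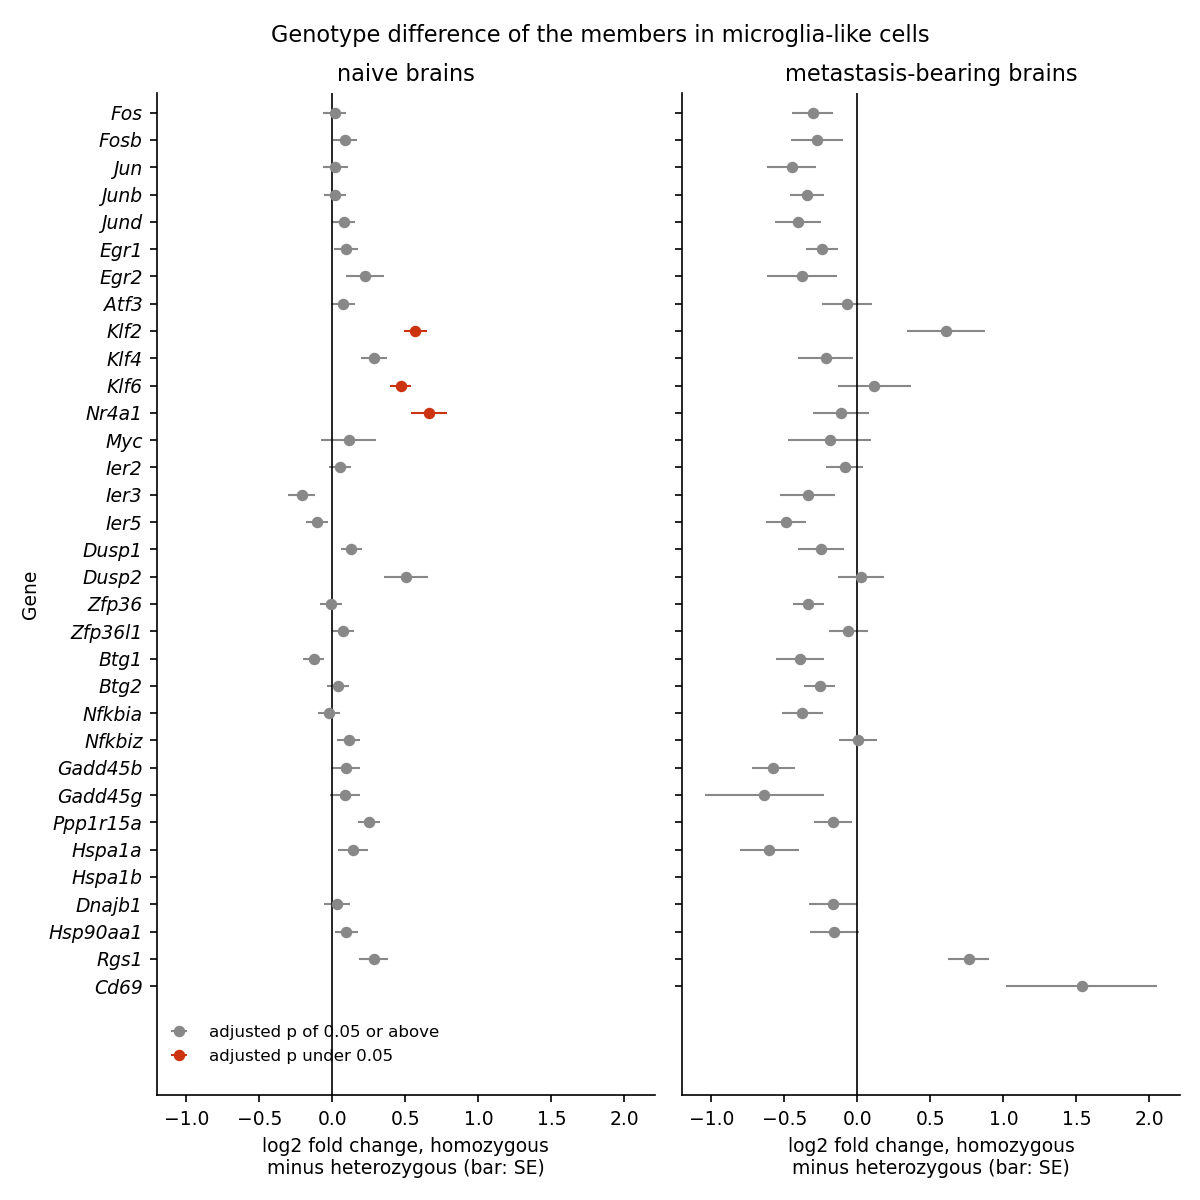
Log2 fold change of each member in microglia-like cells, homozygous minus heterozygous, with naive and metastasis-bearing brains in separate panels. Each point is 1 gene, its bar is the SE, and colour marks an adjusted p under 0.05 by limma. Klf2, Klf6 and Nr4a1 pass in naive brains, and Rgs1 has a positive value with metastases that does not pass.

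With metastases, 0 of 32 members were called in microglia-like cells by limma, where 6 of 7374 genes (0.0814%) were, and 12 members had an unadjusted p under 0.05, as had 635 of the 7374 genes. Most differences were negative: 26 of 32 (48.4% of all genes), with a median of -0.25 against 0.01 over all genes. The genotypes did not overlap for 13 members that were lower in homozygous brains (19% of all genes) and 2 that were higher (21.6%). The 2 that were higher were the lymphoid members, Rgs1 and Cd69. Cd69 had the largest log2 difference of the members, 1.54, was not called and ranged from 20.7 to 179 CPM over the brains. The smallest p belonged to Rgs1, which was higher in homozygous brains, at 295 and 317 CPM in heterozygous and 483 and 573 CPM in homozygous brains (log2 difference 0.76, SE 0.14, adjusted p = 0.163). Its genotypes did not overlap, and without the homozygous brain 1 it rose by 0.88 (adjusted p = 0.0357). That fit called 1 member, as did those without the heterozygous brain 1 and without the homozygous brain 2, and the fit without the heterozygous brain 2 called 2. Over all genes these fits called 88, 36, 62 and 79. Gadd45b stood at 557 and 445 CPM in heterozygous and 328 and 333 CPM in homozygous brains (log2 difference -0.58, SE 0.15, adjusted p = 0.341), Ier5 at 1975 and 1884 CPM in heterozygous and 1225 and 1534 CPM in homozygous brains (log2 difference -0.49, SE 0.14, adjusted p = 0.397) and Zfp36 at 3209.5 and 3287 CPM in heterozygous and 2539.9 and 2605 CPM in homozygous brains (log2 difference -0.34, SE 0.11, adjusted p = 0.477). These feedback inhibitors were lower in both homozygous brains. So was Junb, at 5981 and 5525 CPM in heterozygous and 4289.8 and 4765 CPM in homozygous brains (log2 difference -0.35, SE 0.12, adjusted p = 0.484). Klf2, which rose in homozygous naive brains, measured 1366 and 2061 CPM in heterozygous and 1967 and 3335 CPM in homozygous brains (log2 difference 0.61, SE 0.27, adjusted p = 0.584), and the genotypes overlapped.

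Cell number, depth and markers of other cells differed beside these values. The homozygous brains gave 85 and 35 microglia-like cells with metastases, and the homozygous brain 1 had the deepest of them, with a median of 12596 raw UMIs against 7850.5 to 8928.5 in the other 3. Among cells with 5000 to 15000 raw UMIs the differences were -0.22 for Junb and -0.21 for Zfp36, closer to 0, and 0.90 for Rgs1. Over 10 other settings that kept all brains, Junb ranged from -0.74 to -0.22 and Zfp36 from -0.67 to -0.21. Ier5 ranged from -0.89 to -0.26, Gadd45b from -0.62 to -0.14 and Rgs1 from 0.48 to 0.90. The 7 markers of NK cells, none of them at 0 in all brains, summed to 6.60, 110.3, 249 and 146 CPM. These sums were higher in the homozygous brains, as Rgs1 and Cd69 were. The 9 neutrophil markers summed to 1349, 138, 146 and 119 CPM, highest in the heterozygous brain 1. The 10 monocyte/macrophage markers (545, 728, 825 and 927 CPM) were higher, and the 9 dendritic (268, 298, 144 and 168 CPM) and 10 microglia markers (15271, 15580.4, 14470.2 and 13279 CPM) lower, in both homozygous brains. The part of depth and of these markers in the differences of microglia-like cells was not tested.

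The difference of the genotype effect between states was tested as an interaction over the 8 brains. limma called 1 of 7065 genes (0.0142%) and 0 of 31 members, of which 15 had an unadjusted p under 0.05, as had 596 of all genes. The interaction was negative for 29 of 31 members (54.8% of all genes), with a median of -0.35 against -0.03 over all genes. A negative value means that the homozygous minus heterozygous difference was lower with metastases. The smallest p belonged to Gadd45b, whose difference was -0.58 with and 0.09 without metastases (interaction -0.67, SE 0.20, adjusted p = 0.469). Hspa1a (interaction -0.74, adjusted p = 0.504), Nr4a1 (-0.77, 0.552), Ppp1r15a (-0.42, 0.552) and Junb (-0.36, 0.569) followed. Klf2 differed by 0.61 with and 0.57 without metastases (interaction 0.04, SE 0.31, adjusted p = 0.982). Over 10 other settings that kept all brains, the Gadd45b interaction ranged from -0.69 to -0.15. Without the metastasis-bearing homozygous brain 1 the fit called 2 members (of 313 genes), and without the homozygous brain 2 it called 7 (of 173).

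In NK-like cells of metastasis-bearing brains 1 of the 30 members tested rose and 0 fell, where 3 of 6299 genes (0.0476%) were called, all of them higher in homozygous brains. That member was Cd69, at 96.7 and 129.7 CPM in heterozygous and 351 and 275 CPM in homozygous brains. Both homozygous brains lay above both heterozygous ones, with a log2 difference of 1.39 (SE 0.17, adjusted p = 0.0309). Counting Cd69, 18 members had an unadjusted p under 0.05, as had 254 of all genes. The genotypes did not overlap for 17 members that were higher in homozygous brains (13.5% of all genes) and 4 that were lower (19.6%). The median difference of the members was 0.24 against -0.03 over all genes. All 14 feedback inhibitors were positive, where 56.1% of all genes were negative. Zfp36 stood at 271 and 286 CPM in heterozygous and 427 and 456 CPM in homozygous brains (log2 difference 0.65, SE 0.10, adjusted p = 0.135), and Gadd45b at 149.9 and 122 CPM in heterozygous and 257 and 243 CPM in homozygous brains (log2 difference 0.84, SE 0.14, adjusted p = 0.138). The kinase phosphatase gene Dusp1 measured 375 and 419.9 CPM in heterozygous and 576 and 613 CPM in homozygous brains (log2 difference 0.57, SE 0.10, adjusted p = 0.172). These inhibitors were higher in both homozygous brains. Klf2, which sustains the circulating, resting state of lymphocytes, was the other way round, at 1857 and 1540.3 CPM in heterozygous and 1103 and 1084 CPM in homozygous brains (log2 difference -0.62, SE 0.09, adjusted p = 0.135).

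The heterozygous brain 1 held 37 NK-like cells and the other brains 118 to 401. Left-out brains moved the count from 0 without the homozygous brain 1 (Cd69 adjusted p = 0.178) and 1 without the homozygous brain 2 to 11 and 19 without the heterozygous brains 1 and 2, where the same fits called 3, 3, 58 and 920 of all genes. Cd69 also missed the threshold with a pseudocount of 1 (adjusted p = 0.0561), with a filter at 50 CPM (0.0655) and without the mean trend (0.916). The 7 NK markers summed to 8681, 10199, 11326 and 12475 CPM and the 11 T cell markers, 1 of them at 0 in all brains, to 476, 406, 351 and 348 CPM. NK markers were higher and T cell markers lower in both homozygous brains, and their part in the Cd69 difference was not tested.

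T-like cells of the same brains had 0 of 30 members called and 0 of 6524 genes (0%) by limma, with 15 members and 297 of all genes at an unadjusted p under 0.05. The same gene led: Cd69 measured 273 and 317 CPM in heterozygous and 535 and 466 CPM in homozygous brains (log2 difference 0.74, SE 0.11, adjusted p = 0.133). Rgs1 was next, at 658 and 623 CPM in heterozygous and 864 and 946 CPM in homozygous brains (log2 difference 0.49, SE 0.08, adjusted p = 0.148), and both genes were higher in both homozygous brains. Fos (311 and 362 CPM in heterozygous and 479.8 and 451 CPM in homozygous brains; log2 difference 0.46, SE 0.10, adjusted p = 0.474) and Dusp2 (155 and 194 CPM in heterozygous and 257 and 252 CPM in homozygous brains; log2 difference 0.53, SE 0.12, adjusted p = 0.528) followed. The genotypes did not overlap for 16 members that were higher in homozygous brains (19.7% of all genes) and 2 that were lower (13.4%), with a median of 0.20 against 0.02. Klf2 was again lower, at 752 and 790.4 CPM in heterozygous and 626 and 452 CPM in homozygous brains (log2 difference -0.53, SE 0.13, adjusted p = 0.654). The count of calls was 7 (of 67 over all genes) without the heterozygous brain 1, 11 (of 240) without the heterozygous brain 2 and 0 (of 0) without either homozygous brain. The 10 monocyte/macrophage markers summed to 1819, 2004, 2279 and 2294 CPM in T-like cells, higher in the homozygous brains. Lyz2, a gene of that list, went the other way, at 133, 123, 118 and 95.5 CPM. The part of these markers in the differences was not tested.

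In T/NK-like cells of naive brains limma called 16 of 7453 genes (0.215%) and 0 of 31 members, of which 1, Junb, had an unadjusted p under 0.05, as had 408 of all genes. Junb stood at 3889.7 and 3792 CPM in heterozygous and 3499.8 and 3117 CPM in homozygous brains (log2 difference -0.22, SE 0.10, adjusted p = 0.897). The other 4 members with the smallest p were Zfp36 (log2 difference 0.27, SE 0.17, adjusted p = 0.927), Klf4 (log2 difference -0.49, SE 0.33, adjusted p = 0.927), Gadd45g (log2 difference -0.55, SE 0.40, adjusted p = 0.932) and Nr4a1 (log2 difference -0.21, SE 0.19, adjusted p = 0.947). Without overlap, 1 member was higher in homozygous brains (23.2% of all genes) and 2 were lower (11.7%). Cd69 measured 297 and 406 CPM in heterozygous and 377 and 239 CPM in homozygous brains (log2 difference -0.20, SE 0.21, adjusted p = 0.948), and its heterozygous and homozygous brains overlapped. T and NK cells were counted as 1 class here, so the values cannot be set against those of NK-like cells alone.

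**Figure D5:**
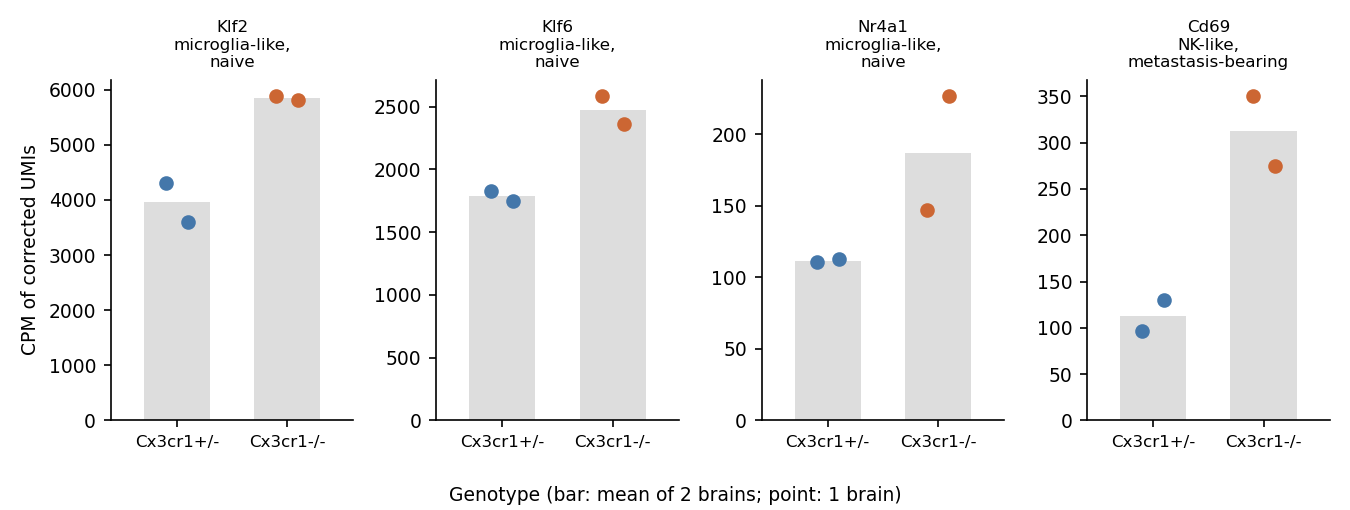
Level in each brain (CPM) of the members that passed the test in 1 class, heterozygous and homozygous brains apart, 1 point per brain. Klf2, Klf6 and Nr4a1 are higher in both homozygous naive brains in microglia-like cells, and Cd69 is higher in both homozygous metastasis-bearing brains in NK-like cells.

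Monocyte/macrophage-like and vascular-like cells had mostly lower member levels in homozygous brains, and no member passed in either. In monocyte/macrophage-like cells limma called 1 of 6980 genes (0.0143%) and 0 of 32 members, with 7 members and 535 of all genes at an unadjusted p under 0.05. There 17 members were lower in both homozygous brains (15.2% of all genes) and 3 were higher (21.4%), with a median of -0.19 against 0.01 over all genes. Jund stood at 1441 and 1005 CPM in heterozygous and 695 and 784 CPM in homozygous brains (log2 difference -0.70, SE 0.18, adjusted p = 0.320), and Egr1 at 538 and 392 CPM in heterozygous and 305 and 291 CPM in homozygous brains (log2 difference -0.61, SE 0.16, adjusted p = 0.330). Both transcription factors were lowest in the homozygous brains and highest in the heterozygous brain 1. Fosb (log2 difference -0.77, SE 0.27, adjusted p = 0.507), Egr2 (log2 difference -0.56, SE 0.15, adjusted p = 0.349) and Klf6 (log2 difference -0.33, SE 0.11, adjusted p = 0.473) were also lower. Without the heterozygous brain 2 the fit called 8 members among 230 genes. It called 0 members among 148 genes without the heterozygous brain 1, among 5 without the homozygous brain 1 and among 0 without the homozygous brain 2. Markers of other cells differed between these brains. The 10 microglia markers summed to 1310.5, 709.6, 831 and 676 CPM, highest in the heterozygous brain 1 like Jund and Egr1, whose levels were also higher in microglia-like cells. The 9 dendritic cell markers summed to 277, 259.9, 133 and 167 CPM, lower in the homozygous brains, and the 9 neutrophil markers to 834, 389, 361 and 3665 CPM. The part of these cells in the differences was not tested.

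In vascular-like cells limma called 0 of 8896 genes (0%) and 0 of 31 members, with 16 members and 918 of all genes at an unadjusted p under 0.05. Of the members 19 were lower in both homozygous brains (19.3% of all genes) and 1 was higher (23.4%), and the median was -0.56 against 0.01 over all genes. Gadd45g measured 456 and 419 CPM in heterozygous and 152 and 138 CPM in homozygous brains (log2 difference -1.53, SE 0.13, adjusted p = 0.190), and Ier3 1069 and 1209.8 CPM in heterozygous and 555 and 681 CPM in homozygous brains (log2 difference -0.88, SE 0.14, adjusted p = 0.211). The homozygous values were the lower ones in each case. Zfp36 (1276 and 960.3 CPM in heterozygous and 624 and 619 CPM in homozygous brains; log2 difference -0.82, SE 0.15, adjusted p = 0.211) and Jun (2325 and 2076 CPM in heterozygous and 1308 and 1518 CPM in homozygous brains; log2 difference -0.64, SE 0.12, adjusted p = 0.219) were lower too. Hspa1a stood at 85.4 and 107 CPM in heterozygous and 47.0 and 35.6 CPM in homozygous brains (log2 difference -1.05, SE 0.20, adjusted p = 0.211). Depth moved with genotype in these cells, with median raw UMIs of 7767 and 7749 in heterozygous and 10982 and 12320 in homozygous brains. Among vascular-like cells with 5000 to 15000 raw UMIs the differences were -0.99 for Gadd45g, -0.73 for Ier3, -0.36 for Zfp36, -0.28 for Hspa1a and -0.19 for Jun, with adjusted p from 0.259 to 0.840. Marker sums moved with genotype as well. The 7 mural and stromal markers summed to 4428, 4116, 2949 and 2976 CPM, lower in both homozygous brains. The 10 microglia markers (1568, 1662, 3113 and 2506 CPM) and the 7 cycling markers (459, 363, 819.7 and 735 CPM) were higher in both. The microglia markers P2ry12 (31.3, 10.6, 9.23 and 9.98 CPM) and Tmem119 (28.8, 4.08, 3.36 and 25.7 CPM) were small parts of their sum and did not rise with it. The part of depth and of these markers in the differences over all cells was not tested. Without the homozygous brain 2 the fit called 4 members (of 169 genes), without the homozygous brain 1 it called 1 (of 5), and without either heterozygous brain 0.

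Krt8-high cells, where 11 members stayed below 10 CPM, had 2 of 8011 genes called (0.025%) and 0 of 22 members, with 3 members and 486 of all genes at an unadjusted p under 0.05 by limma. Junb stood at 99.6 and 107 CPM in heterozygous and 73.8 and 82.4 CPM in homozygous brains (log2 difference -0.36, SE 0.13, adjusted p = 0.787). It was followed by Dnajb1 (log2 difference 0.43, SE 0.16, adjusted p = 0.787), Zfp36l1 (log2 difference 0.55, SE 0.22, adjusted p = 0.787), Jund (log2 difference -0.19, SE 0.09, adjusted p = 0.787) and Gadd45b (log2 difference 0.32, SE 0.16, adjusted p = 0.787). Junb was lower in both homozygous brains, like 2 other members (23.9% of all genes), whereas 9 were higher (14.8%). Without the heterozygous brain 1 the fit called 8 members (of 2024 genes) and without the heterozygous brain 2 it called 1 (of 173). Hsp90aa1 and Myc, the members that peaked in these cells, differed by -0.25 and 0.20 on the log2 scale between the genotypes and did not pass.

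The other genes of these pathways were followed through 6 further lists. Like the members, these lists were chosen with earlier results of these data known, so their shares of calls are descriptions. In naive microglia-like cells 4 of 23 tested NF-kB target genes rose in homozygous brains and 0 fell, where 0.403% of all genes rose. Tnf, the cytokine whose messenger RNA Zfp36 destabilises, stood at 214 and 294 CPM in heterozygous and 408 and 496 CPM in homozygous brains (log2 difference 0.81, adjusted p = 3.22e-05). Il1a (0.57, adjusted p = 0.000615) and Il1b (0.45, adjusted p = 0.0210), genes of interleukin 1, and Bcl2a1b (0.45, adjusted p = 0.00980), a survival gene, rose as well. Against the same 0.403%, 1 of 15 further immediate early genes rose, Cebpb (0.35, adjusted p = 0.0237), a factor of myeloid inflammatory genes. Of 12 genes of the integrated and unfolded protein stress responses 1 rose, the cystine transporter gene Slc7a11 (0.96, adjusted p = 0.00332), from low levels. No gene passed among 19 other heat shock genes (smallest p for Dnajb4, -0.26, adjusted p = 0.564, and Chordc1, 0.29, adjusted p = 0.581), 10 MAP kinase feedback genes (Dusp5, 0.42, adjusted p = 0.422, and Errfi1, 0.27, adjusted p = 0.467) or 8 p53 targets (Cdkn1a, 0.36, adjusted p = 0.0813, and Bbc3, 0.47, adjusted p = 0.177). In NK-like cells of metastasis-bearing brains 1 of 21 NF-kB targets rose, where 0.0476% of all genes did: the chemokine gene Ccl4, at 1443 and 1729 CPM in heterozygous and 2738 and 2964 CPM in homozygous brains (log2 difference 0.85, adjusted p = 0.0224). No member of the 6 lists passed in T-like, monocyte/macrophage-like, vascular-like or Krt8-high cells, in microglia-like cells with metastases, or in naive T/NK-like cells.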

How the data were processed

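Single-cell RNA and antibody counts came from hashtagged cells of 8 mouse brains. Per the submitters' processing notes, reads were processed with Cell Ranger 3.1 and Seurat 3.1.1 against mm10. The authors deposited 2 tables of natural log values, ln(depth-corrected UMI count + 1), 1 for metastasis-bearing and 1 for naive brains, and metadata with raw UMI counts, clusters, hashtags and antibody gates. The exponential minus 1 gave whole numbers for 100% of nonzero values. Each table was depth-corrected separately by the authors, so levels were not tested between tables.

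Barcodes in both tables were dropped from each. All deposited cells are classed as hashtag singlets in the metadata, which removes doublets between brains; no doublet caller was run, so doublets within a brain were not removed here. The authors' clusters were named by marker genes. Corrected counts were summed over the cells of a class in a brain with at least 20 cells in each of 4 brains, scaled to CPM, filtered at a mean above 10 CPM and tested as log2(CPM + 10) with limma 3.58.1 in R 4.3.3 (empirical Bayes with a mean trend), homozygous minus heterozygous, with Benjamini-Hochberg adjustment over all genes of the class and a threshold of 0.05. Folds on this scale understate the change of low genes. The interaction was fitted over 8 brains. With 2 brains a group, p-values rest on the spread between these brains. The variance of each gene was drawn towards that of genes at a similar level. Log2 values were simulated with normal noise of the size given by the mean trend. On these the fits recovered between 42.5% (naive T/NK-like) and 100% of 200 genes changed 2-fold. Variance of single genes apart from the trend was not simulated, so the shares hold for that noise alone. Cells were thinned to 2000 corrected UMIs for shares of cells, with seeded draws in Python 3.11.15. Correlations over single cells used log2(CPM + 100) of members found in at least 50% of cells.

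The members and lists were chosen with earlier results of these data known. Members that passed in a fit are named, with the 5 smallest p-values where fewer than 5 passed; pathway genes are named where they passed and, in naive microglia-like cells, by the 2 smallest p-values of a list. Hashtags were not tied to single GEO samples, and antibody levels of CD69 were not analysed here. Promoter windows came from RefSeq.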

Additional observations from a re-analysis of the deposited data

How the results depend on the processing

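Fits were repeated with pseudocounts of 1 and 50, a filter at 50 CPM, no mean trend, cells of 5000 to 15000 raw UMIs, all deposited cells, the deposited antibody gates for microglia, and each brain left out, where a lone brain is assumed to vary like the others. Over 45 named results and 605 alternatives, 558 kept direction and side of the threshold, 11 lost a call, 31 gained one and 5 reversed. All 5 reversals lay in naive T/NK-like cells: Zfp36 became -0.032 without the homozygous brain 1 (0.57 without the homozygous brain 2) and -0.41 at 5000 to 15000 UMIs, Klf4 became 0.24 without the homozygous brain 1 (-1.23 without the homozygous brain 2) and 0.087 with all deposited cells, and Gadd45g became 0.37 with all deposited cells, the cause of which was not tested.

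The count of members called in NK-like cells was 0 with a pseudocount of 1, with the filter at 50 CPM and without the trend, and 5 with all deposited cells. It was 1 in naive T/NK-like cells at 5000 to 15000 UMIs and 0 in naive microglia-like cells without the trend. The members' share in naive T/NK-like cells became 2.34% with all deposited cells. With 1 brain left out, counts ranged from 0 to 8 in Krt8-high, 0 to 19 in NK-like, 0 to 11 in T-like, 1 to 2 in microglia-like, 0 to 8 in monocyte/macrophage-like and 0 to 4 in vascular-like cells with metastases, from 0 to 0 in T/NK-like and 2 to 5 in microglia-like cells of naive brains, and from 0 to 7 for the interaction. No paired analysis was possible because the hashtags carry no replicate number that the genotypes share. Fits at 5000 to 15000 UMIs could not be run for NK-like and Krt8-high cells, which left under 10 cells in a brain. The planned comparison with CD69 antibody levels was not run. Depth limits members below 10 CPM, such as Hspa1b in most classes.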
